A study of Mus musculus with 16 samples.

Results

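The late response of the newborn mouse lung to ozone was described from 8 of the 16 arrays of the series, namely the 4 lungs labelled as ozone and the 4 labelled as filtered air at 24 h after exposure. All 21629 genes that passed the detection filter were compared, with attention to those outside cell division. Each array was hybridised with total RNA of 1 whole lung, and the labels describe 4 lungs drawn at random per group from a larger set of mice. All mice were BALB/c pups aged 3 days, an inbred laboratory strain, bred free of specific pathogens. The ozone group breathed 1000 ppb ozone for 3 h, the air group breathed filtered air for the same 3 h, and both were killed 24 h later. Pups of both groups were with foster dams while they were exposed, and each time point had littermates in air as its own controls. Lungs of the same strain, age and exposures taken at 6 h served only to show whether a change was already present earlier.

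Ozone is an oxidant gas that reacts with the fluid and cells lining the airways. Club cells, which line and secrete into the small airways, hold most of the lung's cytochrome P450 enzymes, which oxidise foreign compounds, and together with carboxylesterases, glutathione S-transferases and methyltransferases they detoxify what is inhaled. The newborn lung is still growing, so dividing cells are common in it, and alveolar macrophages and lymphocytes are still settling. In whole lung, fewer cells of a type and less RNA per cell cannot be told apart.

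Levels are given as log2 of the processed spot signal minus the 75th percentile of the same array, so 0 marks the brightness of the 75th percentile and a step of 1 is a doubling. The 75th percentile lay between 690.2 and 946.2 signal units on the 8 arrays, and the share of spots well above background from 74.6% to 81%. Changes are ozone minus air on this log2 scale with their standard error (SE) and 4 lungs per group. A gene was said to rise or fall when its two-sided p from limma, adjusted over all 21629 genes by Benjamini-Hochberg, was under 0.05. The lungs carry the replicate numbers of the labels, and ozone lung 4 is thus replicate 4 of its group.

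Several lungs stood apart before any comparison. The summed signal of the brown fat markers Ucp1 and Cidea was 17.7 times the 75th percentile in ozone lung 4 and 2.30 times in ozone lung 3, against 0.644 and 0.881 in the other ozone lungs and 0.469 to 0.956 in the air lungs. White fat markers followed the same order, at 3.40 in ozone lung 4 and 0.81 in ozone lung 3. The summed skeletal muscle markers (Acta1, Myh3, Ckm and Tnnt3) reached 10.2 in air lung 2 and lay between 3.30 and 4.10 in the other air lungs. All air lungs were above the ozone lungs at 2.41 to 3.01, but Acta1 was the only marker with separate groups. Markers of lung itself (Sftpc, Scgb1a1, Ager and Foxj1) summed to 665 to 818 in all 8 lungs, and those of thymus to at most 0.364. Xist, the RNA of the inactive X chromosome, was above the 75th percentile on 1 of 4 ozone arrays (lung 2) and 3 of 4 air arrays (lungs 1, 3 and 4), so the groups also differed in the share of females. The part of these differences in the results was measured only through the fits that left out an array or took the Xist level as a covariate, which are given where they change a count.

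**Figure D1:**
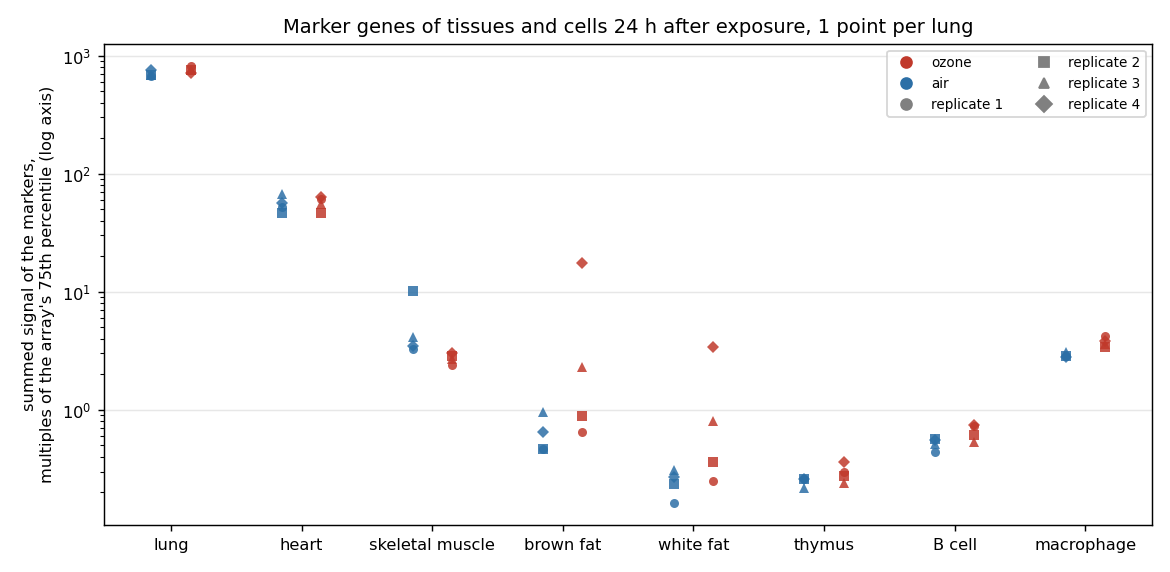
Summed signal of tissue and cell markers in each lung at 24 h, in multiples of the array's 75th percentile on a log axis, with 1 point per lung, red for ozone, blue for air and a symbol per replicate. Brown fat markers reach 17.7 in ozone replicate 4 and 2.30 in ozone replicate 3. The skeletal muscle sum, lower in each ozone lung than in each air lung, reaches 10.2 in air replicate 2. Among its markers only Acta1 has separate groups. Lung markers stay between 665 and 818.

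At 24 h 434 of 21629 genes (2.01%) differed, of which 148 (0.684% of all genes) rose and 286 (1.32%) fell. The cell division list, with 331 measured members, held 197 of the falls and none of the rises, and its median change was -0.57 against 0.02 for all genes. That left 89 falls outside it. Rises were smaller than 2-fold in all but 9 of 148 genes and had a median of 0.51, and the 89 other falls had a median of -0.51, with 4 over 2-fold. The 4 ozone lungs all lay on 1 side of the 4 air lungs for 146 of the rises and 87 of the other falls. Over all genes 6.8% had such separate groups with ozone higher and 4.96% with ozone lower. The shares over all genes in this paragraph are the background for the list counts below.

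These counts moved with the arrays used. Rises numbered 74 without ozone lung 1, 94 without ozone lung 3, 93 without ozone lung 4, and 66, 67, 88 and 94 without air lungs 1, 2, 3 and 4. Falls numbered 172 without ozone lung 3 and 178 without ozone lung 4. With the Xist level as a covariate 53 genes rose and 192 fell, and 50 of the 148 rises, 155 of the 197 division falls and 33 of the 89 other falls were still called. The 8 arrays lay on 2 slides with 2 ozone and 2 air lungs each. With slide as a block 141 rose and 277 fell, while 19 rose and 28 fell within the slide of lungs 1 and 2, and 25 rose and 230 fell within that of lungs 3 and 4. Normexp, another background correction, shifted the median of all genes to -0.13 and called 322 rises and 322 falls, so that 50% of calls were rises in place of 34.1%. List medians given with normexp below have that -0.13 as their background, in place of 0.02. All 76 genes named by rule changed in the same direction within both slides. This follows by itself wherever all 4 ozone lungs lie on 1 side of the 4 air lungs, so it adds no support. Of the 76, 71 were called with slide as a block and 38 in each of 16 fits with 1 array removed. Calls of Fcmr, Ltb, Csf1r, Irf8, Ccl21a, Igfbp6, Mylip, Lrmda, Add2, H2ac8, Tnfaip6, Ntrk2, Smad6, Vegfd, Gli3, Sgk1, Pln and Col17a1 were each lost without at least 1 lung of 24 h. With slide as a block Lck, Cd5, Kel, Nid2 and Lrmda lost the call. With normexp 53 of the 76 were called, and among those lost were Areg, Cfap43, Cxcl15, Gli3, H2ac8, Nid2, Sgk1 and Tnfaip6, beside others given with their values. With the Xist level as a covariate 42 were called, and among those lost were Cyp2b10, Gsta1, Cfb, Il33, Fcmr, Ltb, Csf1r, Irf8, Igfbp6, Mylip, Pln, Tppp3, Cfap43, Scd1, Areg, Vcan and Nid2.

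The largest rise belonged to Inmt, which encodes an N-methyltransferase of tryptamine and related amines. In ozone lungs 1 to 4 it stood at 2.97, 3.02, 3.04 and 3.91, and in air lungs 1 to 4 at 0.99, 1.11, 1.47 and 1.48. The groups were far apart, with ozone lung 4 above the other 3. The change was 1.98 ± 0.27 (SE, n = 4 per group), or 3.94-fold (limma adjusted p = 0.000666), and it was 1.95 and 2.00 within the slides and 1.75 without ozone lung 4. The probe lies on chromosome 6 from 55120770 to 55120829 (mm9). Inmt was called in all 13 alternatives run for it and with any 1 of the 16 arrays removed.

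Cytochrome P450 genes followed Inmt in size. Cyp2a5, a coumarin hydroxylase of airway and liver, stood at -1.10, -0.41, -0.18 and -0.09 in the ozone lungs and at -2.05, -2.40, -1.80 and -1.85 in the air lungs. Its probe lies on chromosome 7 from 27628169 to 27628228 (mm9). Every ozone lung was above every air lung, and the rise was 1.58 ± 0.23 (limma adjusted p = 0.0012). Cyp2a4, a steroid hydroxylase and near copy of it, read -1.91, -1.09, -0.66 and -0.59 against -2.78, -3.00, -2.44 and -2.30, with the lowest ozone value again in lung 1. Its rise was 1.57 ± 0.28 (adjusted p = 0.00428), and its other 2 probes read 0.92 and 1.60. With normexp the change was 0.87 and not called (adjusted p = 0.0527).

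The sequences of these neighbours are nearly shared, so their values cannot be taken as those of separate genes. A probe of Cyp2a4 that changed by 1.60 and the Cyp2a5 probe that changed by 1.58 share a run of 28 of their 60 bases:
Cyp2a4 and Cyp2a5, shared run of both probes: gtagacttgcagaggatatttcaaaggt
The 250 bases before the start of each gene, on the forward strand of chromosome 7 in RefSeq's GRCm38.p6, differ at 4 of 249 aligned bases (98.4% identity). They are shown because both genes rose by nearly the same amount, and capitals mark the bases that differ:
Cyp2a4, chr7:26306942-26307191: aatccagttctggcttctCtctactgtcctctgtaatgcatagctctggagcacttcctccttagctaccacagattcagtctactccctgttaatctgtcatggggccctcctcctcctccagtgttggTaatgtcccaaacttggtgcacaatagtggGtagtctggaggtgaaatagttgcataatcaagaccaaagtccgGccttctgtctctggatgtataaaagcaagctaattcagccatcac
Cyp2a5, chr7:26835089-26835338: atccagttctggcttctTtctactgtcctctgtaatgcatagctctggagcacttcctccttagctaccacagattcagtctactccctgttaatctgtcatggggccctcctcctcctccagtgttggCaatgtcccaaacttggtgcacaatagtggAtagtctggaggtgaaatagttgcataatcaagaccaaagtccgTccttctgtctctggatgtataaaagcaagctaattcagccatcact

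The Cyp2b genes, whose enzymes are known for their response to phenobarbital-like compounds, rose as well. Cyp2b9 stood at -0.11, -0.13, -0.05 and -0.33 in the ozone lungs and at -1.35, -1.16, -0.91 and -1.04 in the air lungs. The groups were separate, and the change was 0.96 ± 0.12 (adjusted p = 0.000266). Cyp2b10 read -2.15, -1.85, -1.64 and -1.94 in ozone against -2.97, -2.74, -2.72 and -2.68 in air, again without overlap, a change of 0.89 ± 0.18 (adjusted p = 0.0155) that was no longer called without ozone lung 3 or air lung 1. It was 0.34 and not called with normexp. Cyp2b13, looked up after its value was seen, rose by 0.83 (adjusted p = 0.000716). The probes share only short runs here, at most 8 bases between Cyp2b9 and Cyp2b13 and 7 between Cyp2b10 and Cyp2b13. Probes were compared only with each other, so whether a probe also matches the transcript of another of these genes was not tested. The stretches before the starts of Cyp2b9 and Cyp2b13 nevertheless differ at only 2 of 250 bases (99.2% identity), marked in capitals, whereas those of Cyp2b9 and Cyp2b10 are 73.8% identical:
Cyp2b9, chr7:26173159-26173408: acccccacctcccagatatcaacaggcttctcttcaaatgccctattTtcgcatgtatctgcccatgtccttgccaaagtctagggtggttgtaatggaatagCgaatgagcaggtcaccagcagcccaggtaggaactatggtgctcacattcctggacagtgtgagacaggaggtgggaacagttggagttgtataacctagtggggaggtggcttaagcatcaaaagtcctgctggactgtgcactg
Cyp2b13, chr7:26061245-26061494: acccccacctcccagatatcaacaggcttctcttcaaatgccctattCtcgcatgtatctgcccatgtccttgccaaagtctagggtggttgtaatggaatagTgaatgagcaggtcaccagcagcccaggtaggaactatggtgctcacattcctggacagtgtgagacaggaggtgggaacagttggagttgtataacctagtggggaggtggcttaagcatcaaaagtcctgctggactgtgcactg

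Over the whole P450 list 4 of 35 measured members rose and none fell, where 0.684% of all genes rose. The median of the list was only 0.10, and it was -0.21 with normexp, and the 4 risers were Cyp2a4, Cyp2a5, Cyp2b9 and Cyp2b10. Cyp2b13 is not in the list. Cyp2f2, the most typical P450 of club cells, had a change of 0.30 ± 0.16 and was not called (adjusted p = 0.448).

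**Figure D2:**
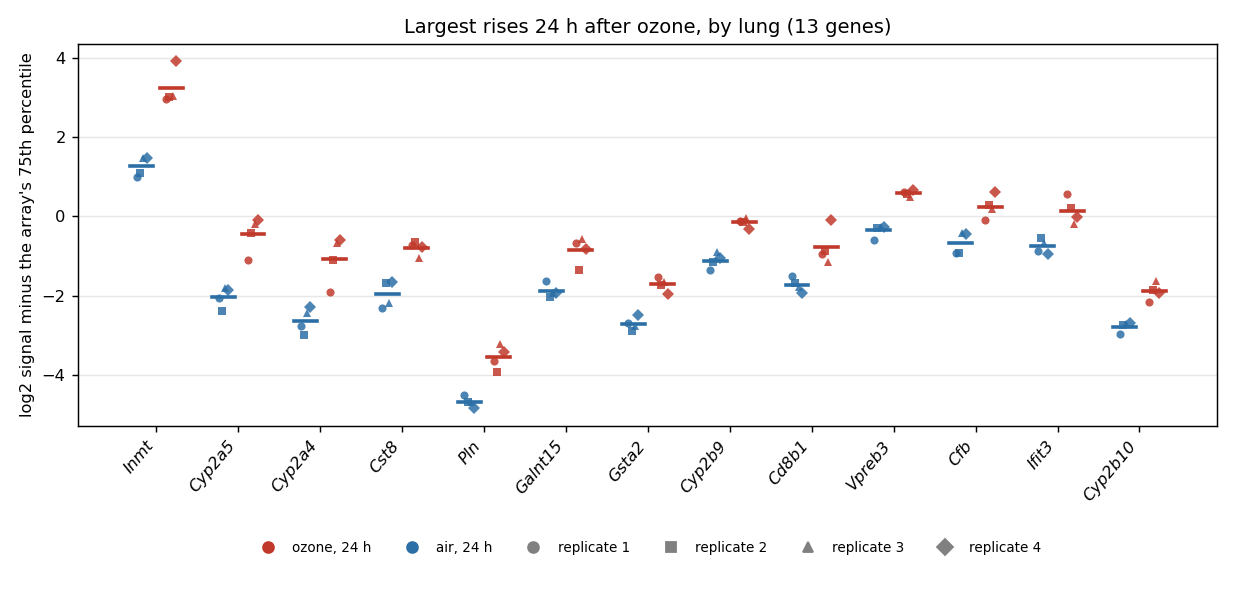
Log2 signal minus the array's 75th percentile for 13 of the 15 largest rises outside cell division, with 1 symbol per lung (red ozone, blue air, a symbol per replicate) and a bar at each group mean. The 4 ozone lungs lie above the 4 air lungs for each of the 13 genes, as the choice of genes required. Inmt has the widest gap, 1.98.

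Some enzymes that conjugate or hydrolyse foreign compounds rose too. In that list 6 of 46 measured members rose and none fell, with a median of 0.22 (0.04 with normexp), and 6 rose in each fit that left out a lung of 24 h. The carboxylesterase Ces1d read 4.22, 4.36, 4.31 and 4.35 in ozone and 3.80, 3.84, 3.63 and 3.74 in air. That rise of 0.56 ± 0.08 was small but tight in both groups (limma adjusted p = 0.00119). Its neighbour Ces1e rose by 0.51 ± 0.08, and Aldh1a1, which makes retinoic acid from retinal, by 0.52 ± 0.09. Inmt was among the risers too, as was Maoa, a monoamine oxidase, at 0.48.

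Glutathione S-transferases, which attach glutathione to reactive compounds, had 3 risers of 23 measured and a median of 0.17. All 3 were of the alpha class. Gsta2 read -1.52, -1.72, -1.65 and -1.96 in ozone against -2.70, -2.89, -2.78 and -2.49 in air, without overlap, a rise of 1.00 ± 0.14 (adjusted p = 0.000773), which was 0.37 and not called with normexp. Gsta3 rose by 0.55 ± 0.10 (adjusted p = 0.00778), and ozone lung 4, at 2.05, lay below the other ozone lungs and just above the highest air lung at 1.96. Gsta1 rose by 0.73 ± 0.16 (adjusted p = 0.0226) and lost the call without any 1 of ozone lungs 1, 2 and 3 or air lungs 1, 2 and 3. The Gsta1 and Gsta2 probes, on chromosome 9, share the run of 20 bases set in capitals, so a transcript of 1 gene could add to the signal of the other:
Gsta1 probe: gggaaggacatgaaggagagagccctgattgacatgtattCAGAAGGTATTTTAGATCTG
Gsta2 probe: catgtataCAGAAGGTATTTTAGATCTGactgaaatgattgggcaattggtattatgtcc

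Of 47 measured genes in the NRF2 and antioxidant list none rose or fell by limma, where 0.684% of all genes rose and 1.32% fell, and the median was 0.03. At an unadjusted p under 0.05, 8 (17.0%) were higher and 3 (6.38%) lower, where 8.25% of all genes were higher and 5.05% lower. NRF2 is the transcription factor that answers oxidants. The change was -0.15 ± 0.12 for Nqo1, a quinone reductase, 0.03 ± 0.12 for Hmox1, heme oxygenase 1, and -0.28 ± 0.14 for Gclm, a subunit of the enzyme that starts glutathione synthesis. None was called when any 1 lung of 24 h was left out, except that 1 fell without ozone lung 4, and 1 rose with normexp.

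Airway secretory genes as a group lay above their air levels. In the club cell list 5 of 35 measured members rose (among them Cyp2a5, Cyp2b10, Ces1d and Aldh1a1), none fell, and the median was 0.30 (0.34 with normexp). By lung, the list's median relative to the air mean was 0.21, 0.37, 0.29 and 0.26 in ozone and -0.09, -0.07, 0.04 and 0.12 in air. The groups thus did not overlap, and 4 to 6 members rose in the fits that left out a lung of 24 h. These 4 are enzymes. Scgb1a1, the club cell secretoglobin itself, changed by 0.12 ± 0.12 (adjusted p = 0.763), and its relative Scgb3a2 by 0.42 ± 0.16 (adjusted p = 0.213).

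Some genes of mucous cells varied strongly between lungs. Galnt15, which starts the O-linked sugar chains of mucins and other proteins, read -0.68, -1.36, -0.57 and -0.81 in ozone and -1.64, -2.03, -1.94 and -1.93 in air, without overlap. Its rise of 1.03 ± 0.17 (adjusted p = 0.00318) was the 1 call among 35 measured members of the mucous list, whose median was 0.21. With normexp it was 0.56 and not called (adjusted p = 0.0559). Muc5b, the main gel-forming mucin of mouse airways, read -2.80, -1.35, -0.01 and 0.70 in ozone and -3.92, -3.72, -1.12 and -3.45 in air. Air lung 3 lay above ozone lungs 1 and 2, and the difference of 2.19 ± 0.75 did not pass (adjusted p = 0.170). Scgb3a1, a secretoglobin of upper airways, was at 3.28, 5.11, 5.60 and 5.75 against 2.48, 2.82, 4.57 and 3.06, with the same air lung 3 high, a difference of 1.70 ± 0.53 (adjusted p = 0.127). The mucin gene Muc5ac varied less, at -2.10 to -1.86 in ozone and -2.61 to -1.87 in air, a difference of 0.13 ± 0.19 (adjusted p = 0.882). Muc5b and Scgb3a1 increased from ozone lung 1 to ozone lung 4, as the fat markers Ucp1 and Adipoq did. Air lung 3 was the highest air lung for these fat markers too. Galnt15 did not follow that order, and a link between mucous and fat genes was not tested.

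In the ciliated cell list 60 of 65 measured members had a positive change and the median was 0.26, but only 2 rose. Over all genes 11886 of 21629 changes were positive. The risers were Tppp3, a tubulin-binding protein, by 0.40 ± 0.09 (adjusted p = 0.0305), and Cfap43, an axoneme protein, by 0.44 ± 0.11 (adjusted p = 0.0363). Neither was called without ozone lung 2 or 4 or air lung 1 or 2. No member was called without ozone lung 2, air lung 1 or air lung 2, and 4 were called without air lung 4. The list's ozone lungs stood at 0.18, 0.36, 0.30 and 0.13 and its air lungs at -0.16, -0.04, 0.05 and 0.12, so the closest values nearly touched. With normexp 12 members rose. At 6 h the median of this list had been -0.15. Cfap43 was already called higher then, at 0.39 (limma adjusted p = 0.0414), while Tppp3 was at -0.21 and not called (adjusted p = 0.192).

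The alveolar lists held calls in both directions. Of 40 alveolar type II genes 1 rose and 2 fell, with a median of 0.12, and of 36 type I genes 2 rose and 1 fell, with a median of 0.07, where 0.684% of all genes rose and 1.32% fell. Il33, an alarmin of epithelial nuclei, read 1.96, 1.80, 1.89 and 1.61 in ozone and 1.44, 1.38, 1.23 and 1.27 in air, a rise of 0.48 ± 0.10 without overlap (adjusted p = 0.0121). Scd1, the desaturase that makes oleate, fell by 0.61 ± 0.14, and Cxcl15, the lung chemokine also called lungkine, by 0.35 ± 0.09. With 1 of the 16 arrays removed in turn, Scd1 kept the call 10 times and Cxcl15 2 times. Sec14l3, a lipid-binding protein, rose by 0.51 ± 0.09 (adjusted p = 0.00594), from 5.47 to 5.68 in air to 5.99 to 6.23 in ozone. Sftpc, the surfactant protein that defines type II cells, changed by 0.13 ± 0.10 (adjusted p = 0.707).

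**Figure D3:**
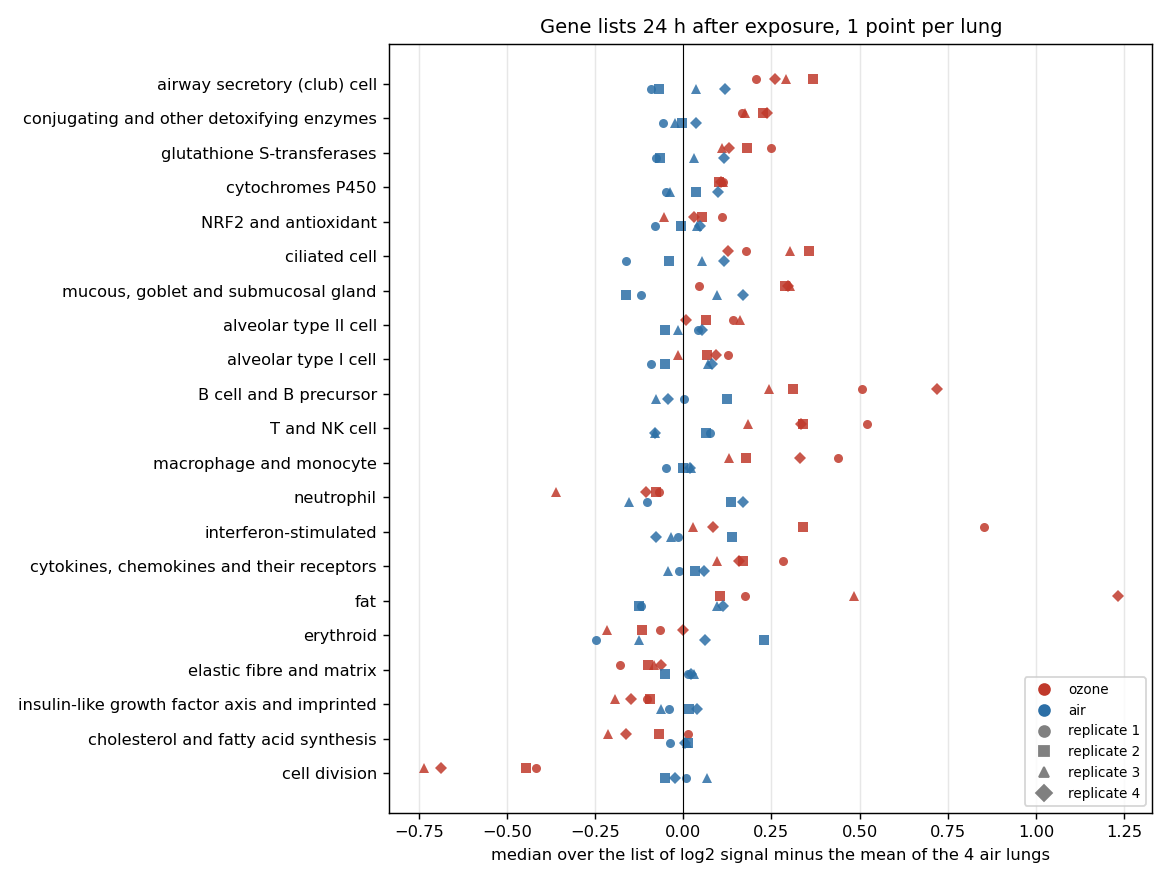
Median over each gene list of log2 signal minus the mean of the 4 air lungs, with 1 point per lung at 24 h, red for ozone and blue for air. Club cell, B cell, T and NK cell and macrophage lists lie to the right of air in all 4 ozone lungs (with normexp the B cell and the T and NK cell medians were both -0.07), the interferon list is led by ozone replicate 1 at 0.85, the fat list by ozone replicate 4 at 1.23, and cell division lies between -0.74 and -0.42.

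Some lymphocyte genes rose. In the B cell list 6 of 40 measured members rose, none fell and 16 had separate groups. The median was 0.43 but -0.07 with normexp, where the median of all genes was -0.13. Of all genes 0.684% rose and 6.8% had separate groups with ozone higher. The 6 were called together in few settings, with 2 called without ozone lung 1, ozone lung 4, air lung 3 or air lung 4, 3 without air lung 1 or air lung 2, and 2 with the Xist level as a covariate. Vpreb3, a protein of B cell precursors, was called in all 13 alternatives and with any 1 of the 16 arrays removed. It read 0.62, 0.58, 0.50 and 0.67 in ozone and -0.60, -0.28, -0.26 and -0.26 in air. The rise of 0.94 ± 0.09 (limma adjusted p = 0.000159) came from clearly separate and narrow groups, and the other Vpreb3 probe read 0.69.

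Cd79b, the signalling chain of the B cell receptor, read 1.99, 1.73, 1.54 and 2.04 in ozone and 1.03, 1.25, 1.20 and 1.02 in air, a rise of 0.70 ± 0.13 (adjusted p = 0.0052). Fcmr, the receptor for IgM, rose by 0.82 ± 0.19 (0.39 and not called with normexp), Tnfrsf13c, the receptor for the survival factor BAFF, by 0.79, the adaptor Blnk by 0.64 and Mzb1 by 0.57. Of 38 immunoglobulin probes 31 had a positive change and 7 a negative one. All 8 probes of the lambda gene Iglv1 were positive, at 0.58 to 0.84, and all 3 of Ighm, at 0.47 to 0.70, although the brightest Ighm probe did not pass (adjusted p = 0.0596). Both probes of Igll1, the surrogate light chain of B cell precursors, were negative, at -0.48 and -0.13, as was Igkv4-57-1 at -0.37. Vpreb1, the partner of Igll1, changed by -0.06 ± 0.20 (adjusted p = 0.966). The summed signal of the B cell markers was 0.532 to 0.748 in ozone and 0.443 to 0.567 in air, so the groups overlapped.

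Among 49 measured genes of T and NK cells 3 rose (Cd8b1, Lck and Cd5), none fell and 18 had separate groups, with a median of 0.36 that was -0.07 with normexp. Of all genes 0.684% rose and 6.8% had separate groups with ozone higher. Cd8b1, the beta chain of the CD8 co-receptor, read -0.94, -0.87, -1.15 and -0.09 in ozone and -1.50, -1.69, -1.77 and -1.93 in air. Ozone lung 4 was the highest, and the rise was 0.95 ± 0.20 (adjusted p = 0.0178), 0.73 without that lung, and not called without air lung 3 or 4. Lck, a kinase of the T cell receptor, and Cd5 rose by 0.51 ± 0.13 and 0.49 ± 0.12, and were 0.23 and 0.25 and not called with normexp. They kept the call 4 and 2 times when the 16 arrays were removed in turn. The list held 5 calls without ozone lung 3 and 1 without ozone lung 1, ozone lung 4, air lung 1 or air lung 2. No member of the list was called without air lung 3 or air lung 4, and none with the Xist level as a covariate. The summed signal of the T cell markers overlapped, at 0.164 to 0.254 in ozone and 0.160 to 0.232 in air. Of these markers Cd3e and Cd4 changed by -0.33 ± 0.26 and -0.03 ± 0.30 (adjusted p = 0.681 and 0.989). The other marker, Cd8a, was higher by 0.89 ± 0.33 and did not pass (adjusted p = 0.218). Cd8a lay at -4.15 to -3.28 in ozone and at -5.04 to -4.42 in air, without overlap. In the thymocyte list 4 of 25 measured members rose, none fell and the median was 0.18 (-0.24 with normexp).

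Among macrophage and monocyte genes 4 of 60 measured members rose, none fell and 17 had separate groups, with a median of 0.29 (0.20 with normexp), where the median at 6 h had been -0.07. Of all genes 0.684% rose and 6.8% had separate groups with ozone higher. The summed signal of Adgre1, Marco and Csf1r was 3.42 to 4.20 in ozone and 2.81 to 3.10 in air. Apoe, the lipid carrier that macrophages secrete, read 4.72, 4.43, 4.55 and 4.63 in ozone and 4.08, 3.85, 4.05 and 3.92 in air, a rise of 0.61 ± 0.10 without overlap (adjusted p = 0.00196). Ms4a7, a membrane protein of macrophages, read -1.15, -1.30, -1.33 and -1.49 in ozone and -2.00, -2.14, -1.98 and -2.01 in air, a rise of 0.72 ± 0.10 (adjusted p = 0.000763) that was 0.40 and not called with normexp. Csf1r, the receptor for macrophage colony-stimulating factor, rose by 0.31 ± 0.07, but 1 of its 2 other probes had the opposite sign. Mpeg1, a pore-forming protein of phagocytes, rose by 0.52. The list held 2 calls without ozone lung 1, ozone lung 4, air lung 1, air lung 2 or air lung 4.

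Of 34 neutrophil genes none rose or fell by limma, and the median was -0.16. At an unadjusted p under 0.05, 3 (8.82%) were higher and 7 (20.6%) lower, where 8.25% and 5.05% of all genes were. Of the 44 complement and acute phase genes, Cfb, complement factor B, was the 1 riser, by 0.92 ± 0.22 (adjusted p = 0.0363). It read -0.10, 0.29, 0.19 and 0.62 in ozone and -0.92, -0.93, -0.41 and -0.43 in air, and the call was lost without ozone lungs 2, 3 or 4 or air lungs 1, 2 or 4 of 24 h. Of 30 genes of MHC class II and dendritic cells 1 rose, Irf8, a transcription factor of myeloid cells, by 0.34 ± 0.07, and the median of 0.24 was -0.11 with normexp.

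Interferon-stimulated genes showed how much 1 lung can carry. Of 72 measured members 67 had a positive change and the median was 0.31, but by lung the list's median relative to air was 0.85, 0.34, 0.03 and 0.08 in ozone and -0.01, 0.14, -0.03 and -0.08 in air. Only ozone lungs 1 and 2 lay above all air lungs, and both are on 1 slide, so the list's median change was 0.53 in that slide and 0.11 in the other. Without ozone lung 1 the median was 0.13. Ifit3, an antiviral effector induced by interferon, was the 1 member that rose. It read 0.57, 0.21, -0.19 and -0.02 in ozone and -0.87, -0.54, -0.66 and -0.94 in air, a rise of 0.89 ± 0.16 (adjusted p = 0.00608) that was 0.75 without ozone lung 1. The near copy Ifit3b, which may share signal with it, is left aside.

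The stretch before the start of Ifit3, on the forward strand of chromosome 19 in RefSeq's GRCm38.p6, is shown because it holds 2 matches of TTTCNNTTTC, the core repeat of the interferon-stimulated response element, in capitals:
Ifit3, chr19:34583279-34583528: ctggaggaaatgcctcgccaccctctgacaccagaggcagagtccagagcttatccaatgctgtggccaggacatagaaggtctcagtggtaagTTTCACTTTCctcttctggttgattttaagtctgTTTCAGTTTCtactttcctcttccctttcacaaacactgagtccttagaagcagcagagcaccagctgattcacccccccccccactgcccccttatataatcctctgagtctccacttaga
Such a match, on either strand, was present in 2 of 101 risers with a promoter sequence (1.98%), Ifit3 and Cd300c2, and in 3.1% of 13424 promoters of all genes.

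Among 73 cytokines, chemokines and their receptors 5 rose and 2 fell, with a median of 0.18 that was -0.25 with normexp. Cxcr4, the receptor that retains leukocytes near its ligand CXCL12, read -0.31, -0.86, -0.67 and -0.80 in ozone and -1.37, -1.22, -1.40 and -1.64 in air, a rise of 0.75 ± 0.13 (adjusted p = 0.00325) that was 0.45 with normexp. Ltb, lymphotoxin beta, rose by 0.64 ± 0.14, the mucosal chemokine Cxcl17 by 0.72 ± 0.16 and Ccl21a, a chemokine of lymphatic vessels with several near copies, by 0.41 ± 0.09. The fifth was Il33, described above. Areg, the growth factor amphiregulin, fell by 0.79 ± 0.20 with all ozone lungs between -4.72 and -4.37 and the air lungs between -4.17 and -3.24, but it kept the call only 3 times when the 16 arrays were removed in turn. Cxcl5, the neutrophil chemokine of epithelium that had differed by 2.21 at 6 h, differed by 1.08 ± 0.34 and did not pass (adjusted p = 0.136).

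Further risers came from several lists or from none. Cst8, a member of the cystatin family, read -0.73, -0.65, -1.05 and -0.76 in ozone and -2.32, -1.69, -2.18 and -1.65 in air, a rise of 1.16 ± 0.21 without overlap (adjusted p = 0.00567). Grp, the peptide hormone of neuroendocrine cells, read 0.33, 0.34, 0.31 and 0.23 in ozone and -0.34, -0.65, -0.54 and -0.61 in air. Its rise of 0.84 ± 0.08 had the smallest adjusted p of all named genes (7.7e-05) and was the 1 call of 36 neuroendocrine and neural genes, whose median was 0.03 (-0.40 with normexp). Enpp2, which makes lysophosphatidic acid, read 1.96, 1.48, 1.75 and 1.63 against 1.03, 0.98, 1.08 and 0.90, a rise of 0.71 ± 0.09 (adjusted p = 0.000399). Prnd, a relative of the prion protein, rose by 0.62 ± 0.12, Igfbp6 by 0.53 ± 0.11 and Mylip, which degrades the LDL receptor, by 0.62 ± 0.14. Inmt and Enpp2 were the 2 risers of 43 measured smooth muscle, pericyte and myofibroblast genes (median -0.08). Aldh1a1 and Igfbp6 were the 2 risers of 21 measured mesothelial genes (median 0.24), where 0.684% of all genes rose. Pln, the brake of the muscle calcium pump, was higher by 1.12 ± 0.25 but at -0.13 with normexp, so its direction depended on the background correction.

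Fat genes were not called, but the fat markers moved with them. The list of 23 had a median of 0.39 with no call by limma (6, or 26.1%, were higher and 0 lower at an unadjusted p under 0.05, where 8.25% and 5.05% of all genes were), and by lung it stood at 0.18, 0.10, 0.48 and 1.23 in ozone and at -0.12, -0.13, 0.10 and 0.11 in air. Without ozone lung 4 the median was 0.16. Adipoq, the fat cell hormone adiponectin, read -8.01, -3.90, -1.36 and 0.97 in ozone and -7.17 to -4.09 in air. Ozone lung 1 thus lay below all air lungs and ozone lungs 2, 3 and 4 above them. The change of 2.68 ± 1.68 did not pass (adjusted p = 0.564).

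Falls outside the division list began with Nmrk2, a kinase of muscle that makes a precursor of NAD. It read -4.66, -4.97, -4.88 and -5.34 in ozone and -4.32, -2.97, -3.05 and -2.65 in air, with air lung 1 close to the ozone lungs. The fall of -1.72 ± 0.39 (limma adjusted p = 0.0305) had been -1.49 at 6 h (adjusted p = 0.0408). It was not called without ozone lungs 2, 3 or 4 or air lungs 2, 3 or 4, and it was -1.59 without ozone lung 4 and -1.07, not called, with normexp. The summed skeletal muscle markers were lower in ozone too, as given above. Acta1, skeletal muscle actin, read 0.83 to 1.17 in ozone and 1.41 to 2.55 in air. Its change of -0.75 ± 0.26 did not pass (adjusted p = 0.170). The other markers overlapped, with Myh3 at -3.74 to -3.49 in ozone and -3.83 to 1.69 in air. Ckm stood at -1.19 to -0.76 against -0.99 to -0.69, and Tnnt3 at -3.76 to -3.36 against -3.87 to -1.07. The part of these markers in the value of Nmrk2 was not tested. Nmrk2 and Pln were the 2 calls among 60 cardiac and striated muscle genes, whose median was -0.09.

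Of the 89 falls outside the division list 16 were in at least 1 of the other 40 lists and 73 in none. Some of the largest are known from dividing cells. Haspin, a kinase that marks histone H3 in mitosis, read -1.50, -0.85, -1.23 and -1.39 in ozone and 0.08, -0.12, -0.76 and -0.50 in air, a fall of -0.91 ± 0.17 (adjusted p = 0.00534). The replication histone gene H3c1 fell by 1.04 ± 0.16 and H2ac8 by 0.86 ± 0.21, with the caution that histone genes are near copies. Ankle1, an endonuclease of chromatin bridges, fell by 0.85 ± 0.17 and Ddias by 0.85 ± 0.15. In the p53 list none of 42 measured members rose by limma, and the 2 falls were Ckap2 (-0.90 ± 0.12) and Psrc1 (-0.87 ± 0.15). Both encode proteins of the mitotic spindle and are also in the division list. At an unadjusted p under 0.05, 7 (16.7%) of the p53 list were higher and 3 (7.14%) lower, where 8.25% and 5.05% of all genes were. The 3 members of the division list with the smallest p were Ccna2, the cyclin of S phase and mitosis, at -0.98 ± 0.10, Brca1 at -0.86 ± 0.09 and Cdk1 at -0.97 ± 0.11, each called with any 1 of the 16 arrays removed.

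Genes of red cell precursors gave 3 falls and no rise among 47 erythroid genes, with a median of -0.09. Klf1, the master transcription factor of the lineage, read -2.57, -2.87, -3.23 and -2.79 in ozone and -2.19, -1.50, -2.03 and -1.78 in air, a fall of -0.99 ± 0.23 (adjusted p = 0.0304). Add2, of the red cell membrane skeleton, fell by 0.73 ± 0.15 and Kel, a blood group protein, by 0.75 ± 0.19. Klf1 was not called without air lung 2, 3 or 4 or ozone lung 2, 3 or 4, and Kel kept its call 3 times when the 16 arrays were removed in turn. No erythroid gene was called without air lung 3, and 1 was called without ozone lung 2, 3 or 4 or air lung 2 or 4. By lung the list's medians overlapped, from -0.22 to 0.00 in ozone and from -0.25 to 0.23 in air.

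Lipid synthesis gave 3 falls and 1 rise among 52 genes, and 12 members had all ozone lungs below all air lungs, where 4.96% of all genes did. The list median was -0.11. Tm7sf2, a sterol reductase of cholesterol synthesis, read 0.29, 0.29, 0.04 and -0.07 in ozone and 0.61, 0.64, 0.48 and 0.72 in air, a fall of -0.47 ± 0.09 (adjusted p = 0.00714). The others were Scd1 and the fatty acid desaturase Fads2, at -0.29, and the riser was Mylip. Falls numbered 1 without ozone lung 1, 3 or 4 or air lung 1, 2 or 4.

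Among the other large falls were genes of growth factor binding, neural adhesion and matrix. Igfbp2, which binds insulin-like growth factors, read 2.66, 2.71, 2.35 and 2.55 in ozone and 2.96, 3.24, 3.66 and 3.48 in air. The fall of -0.77 ± 0.15 (adjusted p = 0.011) was -1.12 within the slide of lungs 3 and 4 and -0.42 within the other, a difference that was not tested. Ntrk2, the receptor for the neurotrophin BDNF, read 2.19, 2.35, 2.30 and 2.10 in ozone and 3.20, 2.77, 2.72 and 3.32 in air, a fall of -0.77 ± 0.16 (adjusted p = 0.0162), and its other 2 probes read -0.84 and -0.48. Ncam1, the neural cell adhesion molecule, fell by 0.74 ± 0.13 (adjusted p = 0.00354), with 1 of 7 other probes of opposite sign. Tnfaip6, which links hyaluronan to its carrier proteins, fell by 0.87 ± 0.19.

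In the elastic fibre and matrix list 2 of 78 measured members fell, none rose and 13 had all ozone lungs below all air lungs, with a median of -0.09. Of all genes 1.32% fell and 4.96% had all ozone lungs below all air lungs. Vcan, the proteoglycan versican, fell by 0.43 ± 0.10 after -0.68 at 6 h, with 1 of 3 other probes of opposite sign, and Nid2, a basement membrane protein, by 0.39 ± 0.09. Neither was called without ozone lung 1, 3 or 4 or air lung 1, 2 or 4. Elastin (Eln) differed by -0.04 ± 0.15 at 24 h (adjusted p = 0.971). Among 94 genes of developmental signalling 3 fell, namely the inhibitory Smad Smad6 by 0.44 ± 0.09, the lymphatic growth factor gene Vegfd by 0.42 ± 0.10 and the hedgehog effector Gli3 by 0.30 ± 0.07, and Wnt3a rose. Sgk1, a kinase induced by glucocorticoids, fell by 0.59 ± 0.13 and was the 1 call of 30 in its list. None of 42 hypoxia and glycolysis genes or of 56 heat shock and unfolded protein genes was called by limma, with medians of -0.03 and -0.05 (the second 0.0056 with normexp). At an unadjusted p under 0.05, 2 and 3 of them were higher and 2 and 6 lower, where 8.25% of all genes were higher and 5.05% lower.

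**Figure D4:**
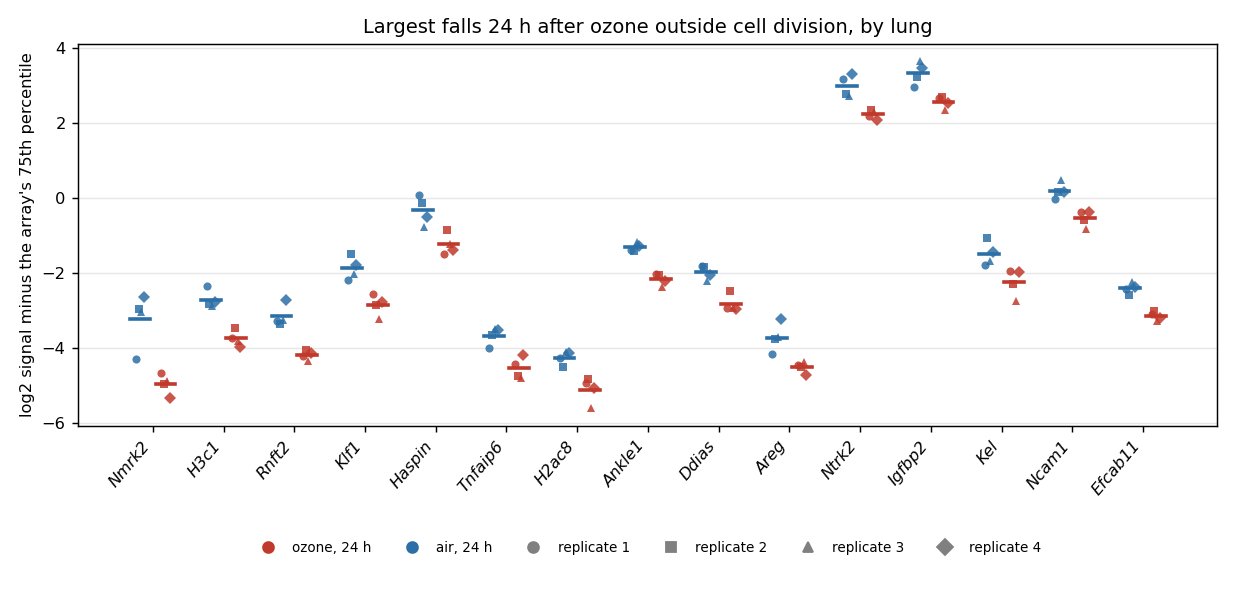
Log2 signal minus the array's 75th percentile for the 15 largest falls outside the cell division list, with 1 symbol per lung (red ozone, blue air, a symbol per replicate) and a bar at each group mean. Nmrk2 has the widest gap, 1.72, with air replicate 1 at -4.32 near the ozone lungs.

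Whether the late changes differed from those at 6 h was tested as a difference of the ozone effects, 24 h minus 6 h. Only 14 of 21629 genes (0.0647%) passed. Of the 148 late rises 104 were also positive at 6 h (70.3%, against 61.4% of all genes) and 25 were called higher then, where 1.36% of all genes were called higher at 6 h. Of the 89 other falls 20 were called lower at 6 h, where 3.12% of all genes were. Arrays of 6 h and 24 h lay on different slides, each with ozone and air lungs. A shift common to all arrays of a slide cancels in this difference, but other differences between slides cannot be told apart from time.

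Passing both tests in the direction of a late rise were 5 genes. Ms4a7 changed by -0.24 at 6 h and 0.72 at 24 h, a difference of 0.95 (limma adjusted p = 0.0237), and Prnd by -0.37 and 0.62, a difference of 0.99 (adjusted p = 0.0379). For Vpreb3 the changes were 0.10 and 0.94, a difference of 0.84 (adjusted p = 0.0292). Lrmda, a gene of pigment cell differentiation, went from -0.42 to 0.39 and Ociad2, a mitochondrial and endosomal protein, from -0.27 to 0.45. With slide as a block the difference was still called for Vpreb3 and Ms4a7 (adjusted p = 0.0441 for both) and not for Lrmda (0.061), Prnd (0.0671) or Ociad2 (0.0688), and the late rise of Lrmda was not called either (adjusted p = 0.0547). With normexp the difference for Ms4a7 was 0.53 (adjusted p = 0.0999). The difference for Inmt was 1.80, from 0.17 at 6 h, and did not pass (adjusted p = 0.0744).

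For other genes the effects at the 2 times were close. Galnt15 was 0.85 at 6 h and 1.03 at 24 h, and Col17a1, a collagen that anchors basal cells, 0.59 and 0.60. The late value of Col17a1 was 0.054 with normexp, and its call was kept 4 times when the 16 arrays were removed in turn. For Vcan, Gli3 and Brca1 the difference between the times was 0.25 (adjusted p = 0.488), -0.0003 (adjusted p = 0.999) and -0.22 (adjusted p = 0.502). A p above the threshold does not show that the effects were equal.

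**Figure D5:**
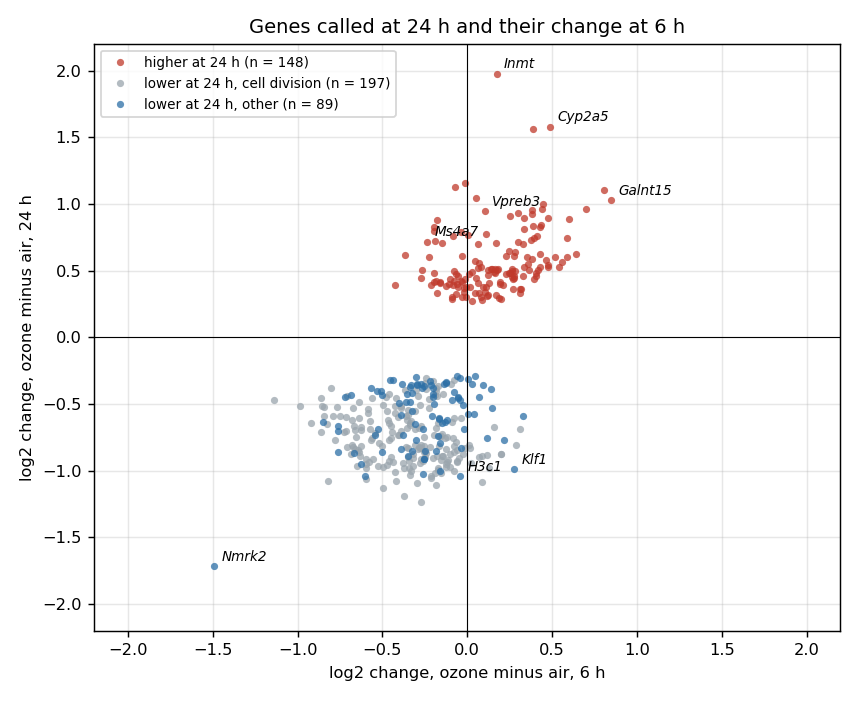
Log2 change (ozone minus air) at 6 h on the x axis and at 24 h on the y axis for the genes called at 24 h, with 148 rises in red, 197 falls of the cell division list in grey and 89 other falls in blue. Inmt lies at 0.17 and 1.98, and Nmrk2 is low at both times, at -1.49 and -1.72.

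The promoters of the groups were also described by short motifs, searched on both strands of the 300 bases from 250 before to 50 after the start in RefSeq's GRCm38.p6. Promoters were found for 101 risers, 164 division falls, 63 other falls and 13424 genes in all. TTTGAA, the core of the cell cycle element CHR, was present in 48.2% of the division falls, 20.6% of the other falls, 14.9% of the risers and 13.4% of all. CCAAT was in 63.4%, 44.4%, 46.5% and 38.5%, in the same order, and the E2F site TTTGGCGC in 6.71%, 0%, 0.99% and 0.864%. The antioxidant response core TGACNNNGC, bound by NRF2, was in 9.9% of the risers and 14.1% of all, and the xenobiotic core GCGTG in 37.6% and 45.6%. No listed motif contains another, a window can count under several, and a match is a run of letters, not a site of binding.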

How the data were processed

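Gene expression was measured on 1-colour arrays, 1 per lung, with groups taken from the labels. The scanner files deposited by the authors hold spot intensity, background-subtracted and detrended by Agilent Feature Extraction 10.7.1.1 per the file headers, not scaled between arrays. Other values deposited per spot flag spots well above background, saturated or uneven. The authors also deposited log2 values (median 6.73 at 24 h), with an unstated background treatment, and these served as an alternative. Positions are those of the array design (mm9). Signals were averaged per probe, taken as log2 and centred on the 75th percentile of 41174 probes that are not controls. Probes well above background on 4 of 16 arrays were kept (32340), 157 uneven ones were dropped, and the probe with the highest mean stood for a gene (21629 genes, 7335 with several probes). Names came from a reference table by accession (25097 probes), symbol (6333) or synonym (1640), and 8104 kept the file's name. The fit was limma 3.58.1 in R 4.3.3, with 4 group means over 16 arrays and a trend, tested on simulated data. The median SE of the 24 h change was 0.133, and the number of arrays limits the precision.

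The members, lists and tests were chosen with earlier results of these data known. Lists are described by counts and medians, without a test. Named genes were the 15 largest rises and falls with separate groups outside the cell division and sex-linked lists, up to 3 members per list by p, the 5 largest late differences per direction and 3 division genes. Names of clones and predicted genes were skipped, and a few genes are not reported here. Genes named beyond this were chosen after their values were seen: Maoa, Mpeg1, Cxcl17, Blnk, Mzb1, Tnfrsf13c, Fads2, Wnt3a, Cyp2b13, Cyp2f2, Scgb1a1, Scgb3a1, Scgb3a2, Muc5b, Muc5ac, Nqo1, Hmox1, Gclm, Sftpc, Eln, Cxcl5, Adipoq, Iglv1, Ighm, Igll1, Igkv4-57-1, Vpreb1, Cd300c2 and the marker genes. Alternatives were normexp background with an offset of 50, quantile normalization, no or a stricter filter, the mean of probes, slide as a block, each slide alone, a replicate block, array weights, the Xist level as a covariate, the deposited table, the arrays of 24 h alone, and each array left out.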

Additional observations from a re-analysis of the deposited data

Results flagged for a closer look

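Of 152 groups of 4 lungs checked for the 76 named genes, 7 held a lung far from its group, where chance gives about 1 in 20 groups. Inmt read 3.914 in ozone replicate 4, against 2.974 to 3.043 in the other ozone lungs. Vpreb3 read -0.602 in air replicate 1, against -0.285 to -0.256. Ddias read -2.473 in ozone replicate 2, nearer to air, against -2.954 to -2.95. Ces1e read -0.209 and Gsta3 read 2.05 in ozone replicate 4, in both cases nearer to air than the other ozone lungs, which lay between -0.06 and -0.047 and between 2.439 and 2.478. Csf1r read 0.757 in ozone replicate 2, against 0.867 to 0.888. Cdk1 read 1.752 in air replicate 1, against 1.544 to 1.571.

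The ozone effect at 24 h differed from that at 6 h, by the limma test of the difference, for 5 genes called higher at 24 h. These differences were 0.842 for Vpreb3, 0.954 for Ms4a7, 0.985 for Prnd, 0.812 for Lrmda and 0.717 for Ociad2 on the log2 scale, and all 4 ozone lungs lay above all 4 air lungs at 24 h for each of them. With slide as a block Vpreb3 and Ms4a7 kept the call and Prnd, Lrmda and Ociad2 lost it. Apart from shifts common to all arrays of a slide, time and slide cannot be told apart here.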

How the results depend on the processing

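The count of 434 genes at 24 h was 47 within the slide of replicates 1 and 2, 255 within that of replicates 3 and 4, 245 with the Xist level as a covariate and 1738 with array weights, and between 264 and 530 when 1 array was left out. With normexp 322 rose and 322 fell, where 148 rose and 286 fell. Without a filter on dim probes 113 rose and 247 fell. The 14 genes whose effects differed between the times became 542 with normexp, 38 with quantile normalization, 6 with slide as a block, 0 and 0 within the slides and 441 with array weights, and between 0 and 263 when 1 array was left out. The deposited table called 200 rises and 366 falls, with 140 of the 148 rises and 85 of the 89 other falls among them. The causes were not tested.

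With the replicate number as a block, 82 genes rose and 179 fell at 24 h (261 in all), and 1 gene differed between the times. Same-numbered ozone and air lungs had correlations of their deviations of 0.195, 0.146, 0.108 and -0.007. For ozone lungs 1 and 3 the same-numbered air lung had the highest correlation. For ozone lungs 2 and 4 it was air lung 1 (0.306) and air lung 3 (0.428). So few values cannot settle whether the numbers pair the lungs.

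Of the values of 76 named genes under 13 alternatives, 752 kept their direction and call, 235 lost the call and 1 reversed, Pln, at -0.126 with normexp. When 1 array was left out, 966 kept both and 250 lost the call. With 4 lungs per group, whether a change passed depended on the gene's own SE, of which the median was 0.133. The smallest called rise was 0.27, and the smallest called fall outside the division list was by 0.29. The difference of 2.19 ± 0.75 for Muc5b did not pass.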
